A study of Caenorhabditis elegans with 19 samples.

Results

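The 37018 sites described here are the L1 peaks of LIN-14, a nuclear DNA-binding factor of developmental timing in Caenorhabditis elegans, as called by chromatin immunoprecipitation and sequencing (ChIP-seq) of a GFP fusion over input. They are all the rows of the annotated L1 peak list, out of 45351 annotated peaks in the series over both larval stages. The first larval stage (L1) was sampled 8 ± 1 hours after synchronized larvae were plated on food. The larvae had the genotype lin14(cc2841[lin-14::gfp]), with GFP on the C terminus of the protein. Pools of whole larvae were fixed with formaldehyde and sonicated, and GFP-Trap magnetic beads captured the tagged protein with its DNA. The 5 ChIP libraries and the 4 input libraries of L1 came from this strain, and a further ChIP library of the untagged N2 strain at L1 is not analysed here. Sites that would appear without the tag were therefore not set aside.

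LIN-14 is known for keeping cells in their first-stage programme. Its level falls after L1 when the microRNA lin-4 pairs with the lin-14 message, and loss or persistence of the protein makes cells skip or repeat stage-specific fates in the skin and other tissues. The genes that act with it in this timing pathway are called heterochronic genes. Because whole larvae were used, a site bound in a few cells and one bound weakly in all cells cannot be told apart.

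Libraries of L1 were merged before peaks were called, with outliers left out, and which libraries were left out is not given. Each site therefore has 1 value and no error between libraries, and the depth of the libraries is unknown. The enrichment values are the authors' own: for each peak, a fold enrichment over control at its summit and a q-value, given as -log10 q. Fold enrichment ran from 1.26 to 3.57, with a median of 1.81 and quartiles of 1.66 and 1.99. The -log10 q ran from 1.31 to 49.9, with a median of 7.35. A fold of 2 or more was reached by 9145 peaks (24.7%), and a q-value of 1e-10 or less by 10278 (27.8%). Enrichment was therefore modest at most sites, with a short upper tail. The peaks were narrow, with a median width of 292 bp, quartiles of 223 and 423 bp and extremes of 180 and 5085 bp, and together they covered 13.6 Mb of the nuclear genome. Wider peaks had higher folds: the median fold was 1.73 for the 13334 peaks under 250 bp and 2.18 for the 821 peaks of 1000 to 2000 bp. Across peaks, Spearman's rho of width and fold was 0.41, given as a description since both come from the same signal.

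L1 peaks lay mostly inside genes, downstream of transcript starts, and only a minority lay in the upstream DNA where promoter elements are usually sought. The authors' table assigns each peak to the nearest transcript start and calls 20715 of the 37018 peaks (56%) promoter peaks within 1 kb of it. That class counts distance on both sides of the start. Of its peaks, 27% lay wholly upstream, 19.4% overlapped the start and 53.5% lay wholly downstream. Over all peaks, 30.2% lay wholly upstream of the assigned start. By the summit, the highest point of a peak, 34.2% were upstream of the start (95% Wilson interval 33.7 to 34.7%), 50.6% were inside the assigned transcript (50.1 to 51.1%) and 15.2% were past its end (14.8 to 15.6%). These intervals cover counting error over peaks only. The median summit was 392 bp downstream of the start, with quartiles 463 bp upstream and 1385 bp downstream.

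The difference in density between the 2 sides of the start was widest close to it, but downstream summits outnumbered upstream ones at every distance. The 250 bp downstream of assigned starts held 4061 summits, 1624 per 100 bp, and the 250 bp upstream held 2010, or 804 per 100 bp. The nearest listed start has nearly the same amount of sequence on each side at this distance, 4.82% of the sequence downstream and 4.78% upstream. From 250 to 500 bp the counts were 2978 downstream and 1620 upstream, and from 500 to 1000 bp they were 5060 and 2667. They were 6322 and 3270 from 1000 to 2000 bp, and 2945 and 1526 from 2000 to 3000 bp. In worms the annotated start of many messages is the place where a spliced leader is joined, and the true start of transcription lies upstream of it. Median fold enrichment differed little with position: it was 1.77 in the last 250 bp before the start, 1.80 in the first 250 bp after it and 1.85 beyond 2000 bp downstream. The share of peaks with a fold of 2 or more differed more. It was 18.8% in the last 250 bp before the start and 22% in the first 250 bp after it. Beyond 3000 bp it was 27.7% upstream and 30.1% downstream.

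**Figure D1:**
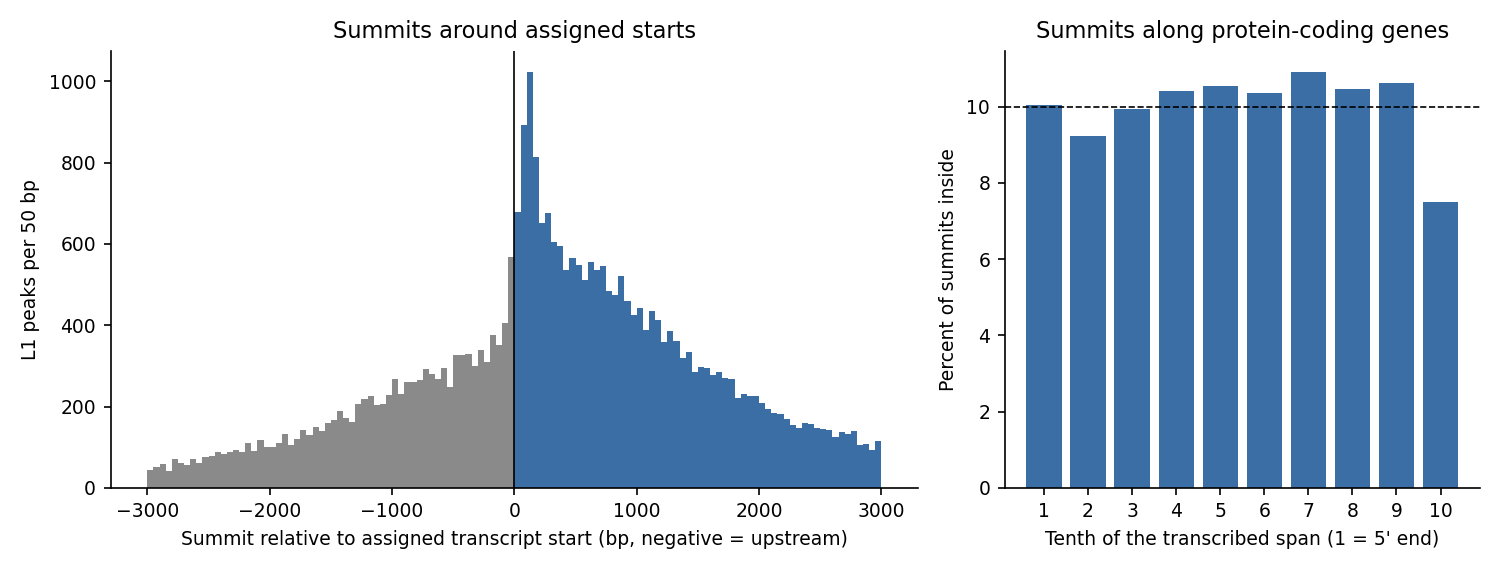
Left, number of L1 summits per 50 bp against the distance in bp from the assigned transcript start, with upstream in grey and downstream in blue. Right, share in percent of 18638 summits inside single protein-coding genes in each of 10 equal parts of the transcribed span, with a dashed line at 10%. Summits were denser after the start than before it, and inside genes they were spread almost evenly, from 7.51% in the last part to 10.9% in the seventh.

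Inside genes the sites were spread along the whole transcribed span. Of all summits, 25229 (68.2%, interval 67.7 to 68.6%) fell inside a listed protein-coding transcript. The listed protein-coding transcripts covered 43.3% of the sequence between the first and last summits of the chromosomes. They are only those to which at least 1 peak was assigned. The share of the sequence inside all protein-coding genes would be the fitting comparison, and it was not computed. Among 18638 summits that lay inside exactly 1 listed coding gene of 2 kb or more, whichever start they were assigned to, the span was divided into 10 equal parts. The first part held 10.04%, the seventh 10.9% and the last 7.51%, and the first 9 parts each held at least 9.22%. Assignment to the nearest start gives many peaks in long genes to a neighbour: of the 2432 peaks the authors classed as exonic, the assigned gene was the gene of the exon for 1243 (51.1%). Of the same peaks 119 (4.89%) were in a first exon, a share that the class itself limits. Exonic peaks are only those farther than 3 kb from the assigned start, so first exons near that start are left out. The deposited table classed 609 peaks as intronic and 652 (1.76%) as distal intergenic, classes likewise reached only by peaks farther than 3 kb from the assigned start.

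Stronger peaks lay inside genes a little more often. Peaks were ranked by fold enrichment and divided into 5 groups of equal size. In the lowest group (1.26 to 1.63) 64.4% of summits were inside a listed coding transcript and 36.6% were upstream of the assigned start. In the highest group (2.05 to 3.57) these shares were 73.2% and 31.2%. The median width rose over the same groups from 243.5 to 418 bp. The share within the last 250 bp before the start was 6.52% in the lowest group and 3.81% in the highest.

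All 6 nuclear chromosomes carried L1 peaks at similar densities per length, but the X chromosome carried more per protein-coding gene. Chromosome II had 404 peaks per Mb, V had 392, X had 388, I had 355, III had 351 and IV had 320. The X held 6874 peaks, 18.6% of all (interval 18.18 to 18.97%), and 17.7% of the sequence up to the last peaks. Its protein-coding genes are the most widely spaced, at 154 per Mb, so it had 2.52 peaks per protein-coding gene. This ratio counts all peaks of a chromosome, also those assigned to non-coding genes. The autosomes had 1.75 together and 1.64 (V) to 1.86 (I) singly. Of protein-coding genes on the X, 76.2% had at least 1 assigned peak, and on the autosomes the share was 67.6%, from 59% on IV to 71.6% on II. Peaks on the X were not stronger: 21.6% of them reached a fold of 2, and on the autosomes the share ran from 22.2% on V to 27.6% on III. Among peaks with a fold of 2 or more the X held 16.2%, below its share of the sequence, so the X chromosome's share of peaks depends on the fold at which peaks are counted. With a fold of 2 or more, 29.7% of protein-coding genes on the X had a peak, within the range of the autosomes, which ran from 23.9% on IV to 30.2% on I. Genes of the X are also the longest, with a median of 2508 bp against 1744 to 2322 bp on the autosomes. The X chromosome is the sex chromosome of worms and is known to be depleted of germline-expressed genes.

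**Figure D2:**
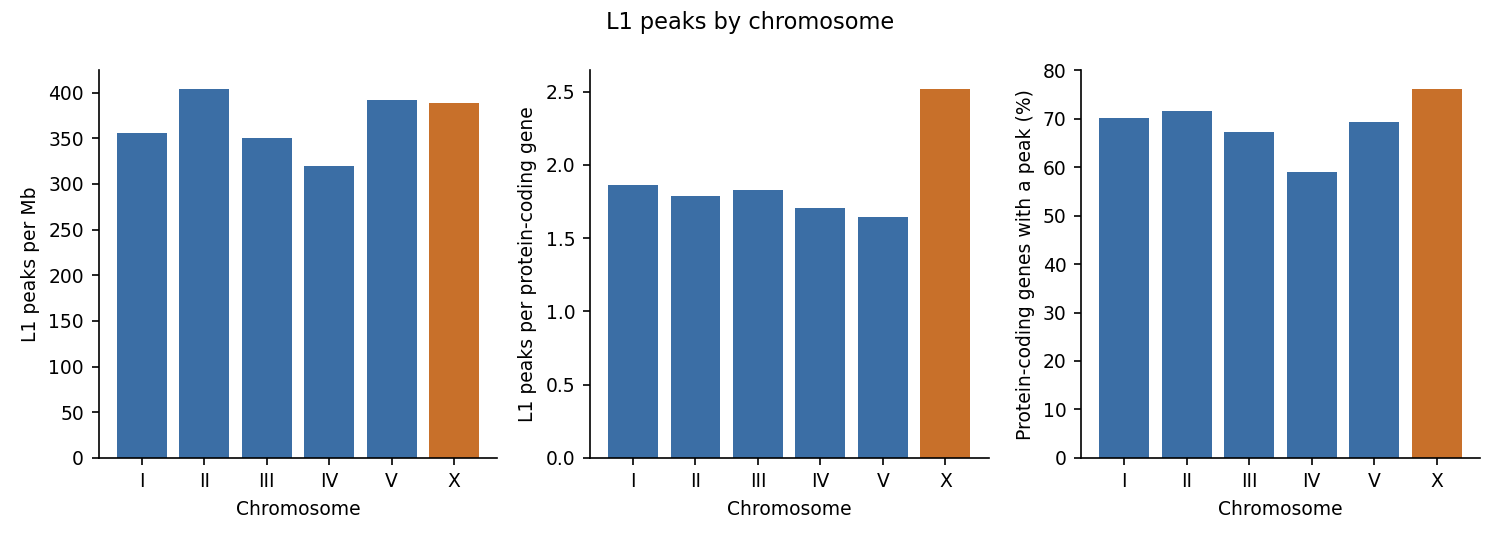
Left, peaks per Mb, and middle, peaks of any assignment per protein-coding gene, for each nuclear chromosome, with the X in orange. Right, percent of protein-coding genes with at least 1 assigned peak. Density per Mb was between 320 and 404, and the X stood above the autosomes per gene, at 2.52 against 1.64 to 1.86.

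On each chromosome peaks were sparsest at or next to an end. When each chromosome was divided into 10 equal parts, the densest part was the fifth, sixth, seventh or eighth on every chromosome, with 403 (IV) to 468 (II) peaks per Mb. The sparsest was an end part on I, II, IV, V and X and the second part on III. Worm autosomes are known to have gene-rich, conserved centres and arms with more repeats. The right end of chromosome IV was the sparsest region of this size, with 203 and 200 peaks per Mb in its last 2 parts. Chromosome IV carries 14714 of the 15363 genes of piRNAs, the short germline RNAs that guide silencing.

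Neighbouring summits were 1570 bp apart in the median, with quartiles of 856 and 3169 bp and a minimum of 202 bp. The most frequent spacing was 500 to 700 bp, with 1841 pairs in each 100 bp of it, and 7.40% of pairs were closer than 500 bp. Peaks were thus close enough for several to fall in 1 gene: 31.3% of neighbours were within 1 kb, and 3.73% were more than 10 kb apart. Spacing is bounded from below by peak width, since peaks do not overlap. Chromosome medians ran from 1517 bp (II) to 1638 bp (IV). The strength of neighbours showed little relation: Spearman's rho between the folds of adjacent peaks was 0.10 for 2766 pairs up to 500 bp apart and 0.01 for 5093 pairs over 5 kb apart.

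**Figure D3:**
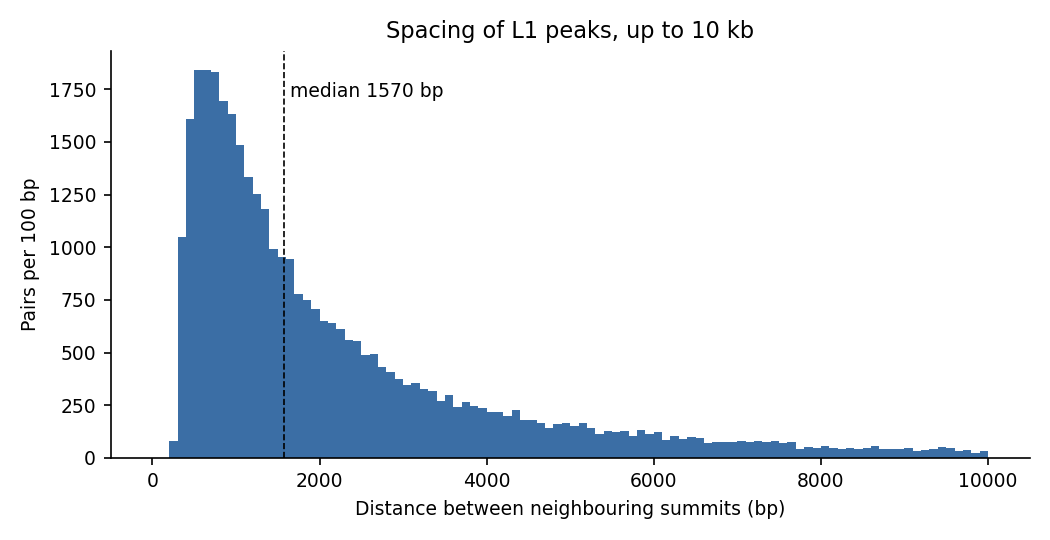
Number of neighbouring summit pairs per 100 bp against their distance in bp, up to 10 kb, with the median of 1570 bp dashed. The count was highest at 500 to 700 bp and was lower at longer distances.

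Chained at 1 kb, the peaks formed 7491 runs of 2 or more, which together held 19086 peaks (51.6%). Of these runs, 368 had 5 or more peaks. Peaks in longer runs were not stronger: the median fold was 1.81 for lone peaks, 1.80 for runs of 2 and 1.82 for runs of 5. The longest run was 11 peaks over 6368 bp of chromosome V (18259116 to 18265484), of which 9 were assigned to R10E8.6 and 2 to R10E8.5, with folds of 1.54 to 2.08. The next was 10 peaks over 6041 bp of chromosome IV around K08E7.12, F42H10.10, cul-6 (a cullin of ubiquitin ligases) and pgp-1 (a P-glycoprotein transporter), with folds of 1.68 to 2.30. Among the 6 runs of 9 peaks, one covered clec-251 and clec-252, genes of C-type lectins, with folds up to 2.86, and one covered the nuclear receptor genes nhr-253 and nhr-254, with folds up to 2.21.

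Long stretches without a peak were few, and most lay among clusters of piRNA genes. Summits were more than 40 kb apart at 10 places. The largest gap, 218 kb, was on chromosome V between the summits at 2346004 (irld-53) and 2564274 (gst-10), and 46 protein-coding genes lie between these neighbours in RefSeq order, 17 of them chemoreceptor genes. The second, 86.7 kb on V, held 26 protein-coding genes, 14 of which encode histones. Another 7 gaps were on IV, and in 6 of them, of 41.3 to 67.7 kb, 149 to 282 piRNA genes lay between the neighbours. The other one, of 44.6 kb next to smg-3, held 64 piRNA genes and 9 protein-coding genes. The gap of 44.2 kb on III, between linc-165 and alh-12, held no annotated gene. Reads from near-identical copies can be split or dropped before peaks are called, and the part of this in the gaps was not tested.

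Most protein-coding genes had an L1 peak. Of 19983 protein-coding genes, 13740 (68.8%) were assigned at least 1 peak, 10965 (54.9%) had one within 1 kb of their start and 5462 (27.3%) had one with a fold of 2 or more. Over all 46926 annotated genes, coding or not, the share with any peak was 39.1%. These shares are the background for the gene groups. Of the genes with peaks, 49.2% had 1 and 26.9% had 2, while 51 genes (0.278%) had 10 or more. Divided by length into 5 groups of about equal size, protein-coding genes had a peak in 55.5% of the shortest group (up to 1049 bp) and then in 66.3%, 71.4%, 74.4% and 76.2% of the longer ones. Per 10 kb of gene the order was the opposite, with 14.4 peaks in the shortest group and 2.51 in the longest. These counts take every assigned peak, also those upstream of the gene or past its end. They leave out peaks inside a gene that were assigned to a neighbour, so they are not densities of sites inside genes.

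The 10 genes with the most peaks were all long, at 18.3 to 48.5 kb. dig-1, a giant secreted protein that holds tissues in place, had 29 peaks over 48.5 kb, all with the summit inside a listed protein-coding transcript and 25 of them classed as exonic, with folds of 1.51 to 2.52. unc-52 (perlecan of the muscle basement membrane) had 28 over 37.1 kb, with folds of 1.43 to 2.74. fln-2 (a filamin) and rin-1 had 18 each, tir-1 (the worm SARM1 adaptor) 17, him-4 (hemicentin, a matrix protein) 16, and gap-2 (a Ras GTPase-activating protein) and let-805 (myotactin, which ties skin to muscle) 15 each. F39C12.1 and sax-2 (a Furry protein of neurite shape) had 14 each. Their densities, 3.41 (gap-2) to 7.64 (F39C12.1) peaks per 10 kb, were above the 2.51 of the longest gene group, which is the direction that choosing genes by peak number gives.

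Heterochronic genes carried L1 peaks at nearly every member of the list. Of 27 genes and microRNAs, 24 (88.9%) had a peak and 14 (51.9%) had one with a fold of 2 or more. Among the 21 protein-coding members, 20 had a peak, where 68.8% of all protein-coding genes did. The list is long in sequence as well, with a median gene length of 5614 bp, and in the longest gene group the share was 76.2%. The list had 76 peaks with folds of 1.43 to 2.66 and a median of 1.86. Of these, 60 lay inside the assigned transcript, 14 upstream of its start and 2 past its end. Of the 14 upstream peaks, 10 were inside another listed transcript of the same gene, and 1 was within 250 bp of the start it was assigned to. No peak was assigned to lin-28, the RNA-binding protein of the early programme, or to the microRNAs lin-4 and mir-241.

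**Figure D4:**
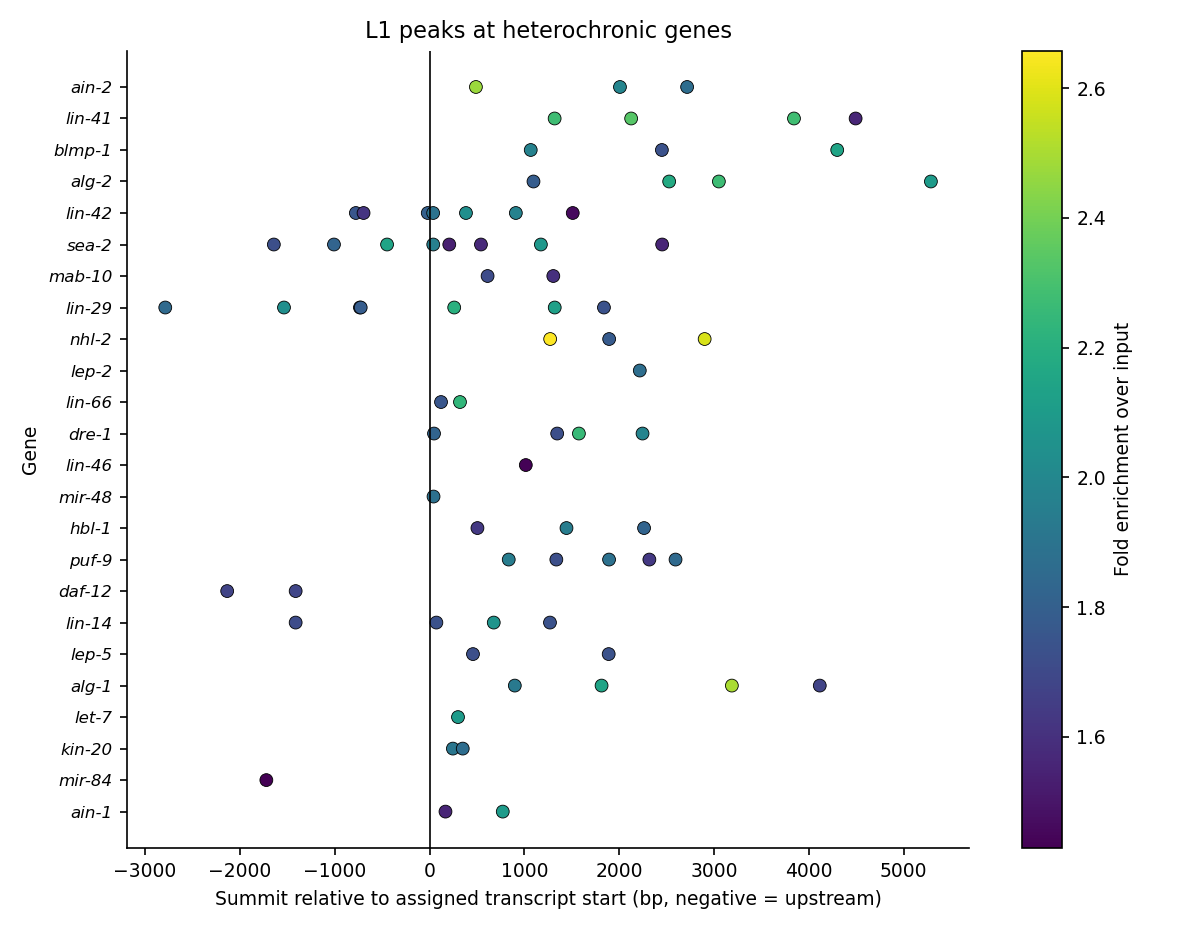
Each point is 1 L1 peak of a heterochronic gene, placed by the distance of its summit from the assigned transcript start in bp and coloured by fold enrichment over input. Of 76 peaks, 60 were inside the assigned transcript, and the folds ran from 1.43 to 2.66.

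Among the core transcription factors, lin-14 itself had 4 peaks on the X, all within 1412 bp of its assigned start. Their folds were 1.71, 1.74, 2.07 and 1.74, in order along the gene, and the strongest (X, 11480752 to 11480980) had its summit 677 bp inside the transcript. hbl-1, the Hunchback-like repressor of later larval fates, had 3 peaks 505 to 2262 bp inside its transcript, with folds of 1.63, 1.94 and 1.82. lin-29, the zinc-finger factor of the larval-to-adult switch, had 7 peaks over several alternative transcripts, with folds of 1.74 to 2.21. Its cofactor mab-10 had 2 weaker peaks with folds of 1.71 and 1.60. daf-12, the steroid receptor of the dauer decision, had 2 peaks of 1.68 and 1.69, both upstream of their assigned starts. The peak of 1.69 was inside another listed transcript of the gene. blmp-1, a BLIMP1-type factor of molting and timing, had 3, with folds of 1.97, 1.74 and 2.14. sea-2, which represses lin-28, had 8 peaks with folds of 1.54 to 2.14, the most of any gene on the list. lin-42, the Period homologue of the molting cycle, had 7 with folds of 1.46 to 2.04.

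The highest folds of the list were at genes of the microRNA machinery. nhl-2, a TRIM-NHL cofactor of microRNAs, had peaks of 2.66 (III, 4897528 to 4898030) and 2.58, with summits 1272 and 2901 bp inside the gene and a weaker one of 1.78. alg-1, a microRNA Argonaute, had 4 peaks, the strongest 2.50 (X, 13953692 to 13954729) with its summit 3188 bp inside the gene. Its paralog alg-2 had 4 peaks with folds of 1.79 to 2.27. ain-2 and ain-1, GW182-type partners of these Argonautes, had best folds of 2.47 and 2.10. lin-41, a TRIM-NHL target of let-7, had 4 peaks with folds of 1.56 to 2.34, all inside the transcript. puf-9, a Pumilio protein, had 5 peaks between 835 and 2594 bp inside the gene, with folds of 1.63 to 1.94. dre-1, an F-box protein that directs turnover of BLMP-1, had 4 with folds of 1.73 to 2.26, and lin-66 and kin-20 had 2 each with best folds of 2.24 and 1.91. lin-46, which acts below lin-28, had 1 weak peak of 1.44, and lep-2 had 1 of 1.87. The non-coding lep-5 had 2 peaks of 1.73 and 1.74, the latter past its end. Among the microRNAs, let-7 had 1 peak of 2.10 with its summit 300 bp downstream of its start, past the end of its transcript. mir-48 had 1 of 1.88 at its start, and mir-84 had 1 of 1.43 at 1721 bp upstream.

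The other groups were read against the shares for all protein-coding genes, 68.8% for any peak and 27.3% for a peak with a fold of 2 or more, and without a test, since the list members were chosen with earlier results known. Of 49 lists, some of which share genes, several of signalling and molting genes were among the highest in the share with any peak. The Notch pathway had a peak at 32 of 34 genes (94.1%), the insulin receptor pathway at 14 of 15 (93.3%), the molting regulators at 23 of 25 (92%), the TGF-beta pathway at 18 of 20 and the Wnt pathway at 25 of 29 (86.2%). A fold of 2 or more was reached at 16, 8, 13, 12 and 12 of these genes, in the same order. Their genes are long, with medians of 2612 to 7280 bp. Within 1 kb of the start the insulin receptor pathway turned, with a peak at 7 of 15 genes (46.7%), below the 54.9% of all protein-coding genes, while the other 4 stayed above it. Named by fold, glp-1 (a Notch receptor) had a peak of 2.83 with its summit 2567 bp inside the gene (III, 9094571 to 9095452), and dbl-1 (the BMP-like ligand of body size) one of 2.88 at 290 bp inside. apr-1 (an APC-related Wnt component) had one of 2.72, and lrp-1 (megalin, needed for shedding the cuticle) one of 2.68 among its 12 peaks. daf-15 (Raptor) had 6 peaks up to 2.59. The insulin receptor daf-2 had 7 up to 2.36, and the FOXO factor daf-16 had 3 up to 2.27.

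**Figure D5:**
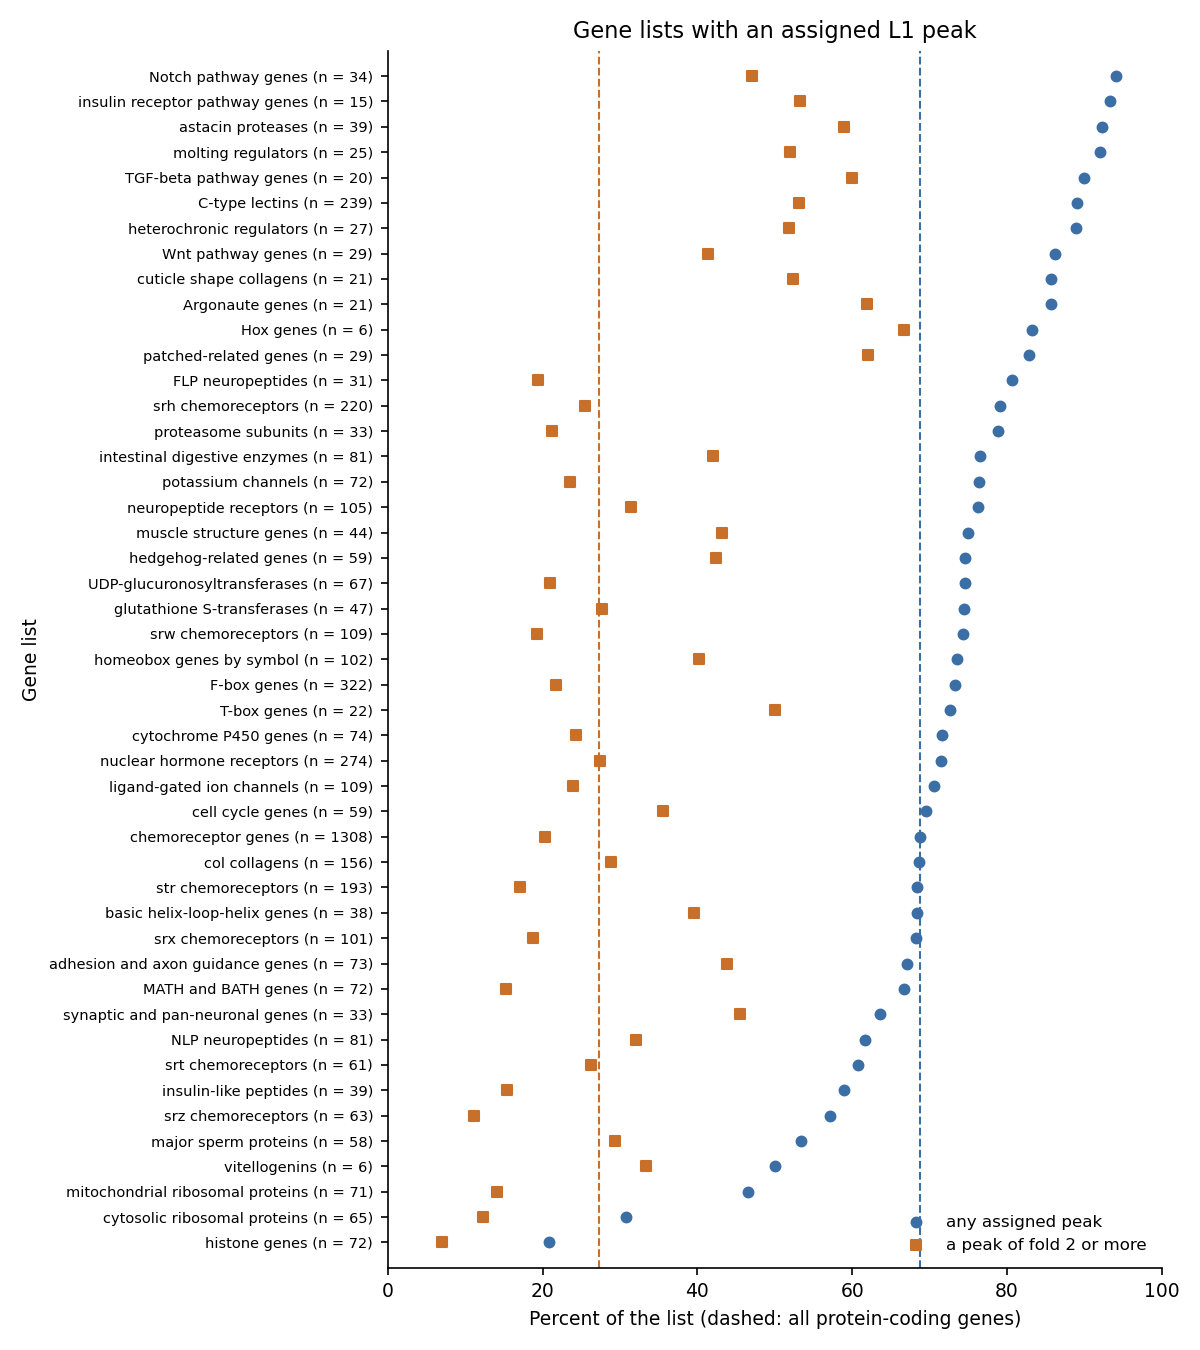
Percent of each gene list with any assigned L1 peak (blue circles) and with a peak of fold 2 or more (orange squares), with the number of genes in brackets. Dashed lines mark all protein-coding genes at 68.8% and 27.3%. Signalling, molting, astacin and C-type lectin lists stood to the right of both lines, and histone and ribosomal protein lists to the left of both.

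Cuticle and skin groups were mixed. Astacins, the metalloproteases of which several process cuticle and matrix proteins, had a peak at 36 of 39 genes (92.3%) and a fold of 2 or more at 23 (59%). nas-15 led them at 2.60, with nas-14 at 2.50 and nas-39 at 2.49. The nas-14 peak lay past the end of its assigned transcript and was classed in an exon of lev-1. Patched-related genes had a peak at 24 of 29 (82.8%; 62.1% at a fold of 2), and the secreted hedgehog-related genes at 44 of 59 (74.6%; 42.4%), led by grl-5 at 3.05 (V, 4412885 to 4413613). Collagens that give the cuticle its shape had a peak at 18 of 21 (85.7%; 52.4%), among them dpy-14 at 2.42, dpy-9 at 2.22 and bli-1 at 2.21. The numbered col collagens had one at 107 of 156 (68.6%; 28.8%), close to the background on both counts. Both collagen lists have short genes, with medians of 1228 and 1220 bp.

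C-type lectins, secreted or membrane proteins of which many respond to infection, had the highest shares of the lists with over 100 genes. Of 239 clec genes 213 (89.1%) had a peak, 199 (83.3%) had one within 1 kb of the start and 127 (53.1%) had one with a fold of 2 or more. Their median length was 1786 bp, and in the length group of genes that spans this length 71.4% had a peak and 25.9% one with a fold of 2. clec-98 (3.09), clec-133 (2.92) and clec-251 (2.86, with 6 peaks) were the strongest. The family is made of related copies, many in clusters, so reads may be shared among them. Intestinal digestive enzymes had a peak at 62 of 81 (76.5%), with a fold of 2 or more at 34, and were led by cpr-2 (a cathepsin B-like protease) at 2.66. Detoxification families were near the background: cytochromes P450 had a peak at 71.6% (24.3% at a fold of 2, and 48.6% within 1 kb of the start), glucuronosyltransferases at 74.6% (20.9%) and glutathione S-transferases at 74.5% (27.7%). F-box genes stood at 73.3% (21.7%) and MATH and BATH genes, which code for ubiquitin ligase adaptors, at 66.7% (15.3%).

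Neuronal groups lay on both sides of the background in the share with any peak, and differed from each other in strength. Synaptic and pan-neuronal genes had a peak at 21 of 33 (63.6%) but a fold of 2 or more at 15 (45.5%), led by syd-2 (liprin-alpha of the presynaptic active zone) at 3.02, ehs-1 at 2.92 and egl-3 (a neuropeptide-processing convertase) at 2.61. Adhesion and axon guidance genes showed 67.1% and 43.8%. Both lists hold long genes, with medians of 7344 and 8295 bp, and the longest gene group had 76.2% and 38.3%, so they lay below that group for any peak and above it for strong ones. FLP neuropeptides had a peak at 25 of 31 (80.6%) but a fold of 2 at 6 (19.4%), among them flp-12 at 2.58, flp-2 at 2.28 and flp-14 at 2.11. The flp-12 peak had its summit 4893 bp upstream of the assigned start and was classed in an exon of spat-3. NLP neuropeptides had 61.7% and 32.1%, and insulin-like peptides 59% and 15.4%. These 2 lists hold short genes, with medians of 860 and 655 bp, and the shortest gene group had 55.5% and 19%. NLP neuropeptides lay above that group on both counts, and insulin-like peptides above it for any peak and below it for strong ones. Highest among the insulin-like peptides was ins-10 at 2.42, in a peak past the end of its transcript. Neuropeptide receptors had 76.2% and 31.4%, ligand-gated ion channels 70.6% and 23.9%, and potassium channels 76.4% and 23.6%. Within 1 kb of the start both channel lists stood at 51.4%, below the background. eat-2, a nicotinic receptor subunit of the feeding muscle, had the strongest peak of the channels at 3.40. Chemoreceptors, the largest family of the worm, had a peak at 898 of 1308 genes (68.7%), the background share, and a fold of 2 or more at 265 (20.3%), below it. Their families ranged from 57.1% for srz through 60.7% for srt, 68.3% for srx, 68.4% for str and 74.3% for srw to 79.1% for srh. srx-23 had the highest chemoreceptor fold, 3.16 (V, 682403 to 683125).

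Most transcription factor families were close to the background in the share with any peak and above it in the share with strong peaks. Homeobox genes had 73.5% and 40.2%, with ceh-49 at 2.72, its summit 3071 bp upstream of the start, and unc-62 (the Meis homologue) at 2.66. T-box genes had a peak at 16 of 22 and a fold of 2 or more at 11, and basic helix-loop-helix genes 68.4% and 39.5%. The nuclear hormone receptors, the largest of these families with 274 genes, had 71.5% and 27.4%, next to the background on both counts, although nhr-122 had a peak of 3.12. Of the 6 Hox genes 5 had a peak and 4 had one with a fold of 2 or more, among them nob-1 (2.30) and php-3 (2.30), the posterior pair, and mab-5 (2.01). Muscle structure genes had 75% and 43.2%, cell cycle genes 69.5% and 35.6%, and Argonautes 85.7% and 61.9%, with alg-4 at 2.62 and hrde-1, of nuclear germline RNAi, at 2.36. Of the 6 vitellogenin genes, which code for yolk proteins and are expressed in adults, 3 had a peak, the strongest at vit-2 with 2.35.

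Among the protein-coding lists, the short housekeeping genes of histones and ribosomal proteins had the smallest shares with a peak. Histone genes had a peak at 15 of 72 (20.8%; 6.94% at a fold of 2), cytosolic ribosomal protein genes at 20 of 65 (30.8%; 12.3%) and mitochondrial ribosomal protein genes at 33 of 71 (46.5%; 14.1%). All 3 were below the 55.5% of the shortest length group. The median lengths of the lists were 384, 732 and 1124 bp, the last of which is just above that group's limit of 1049 bp. Where a cytosolic ribosomal protein gene was assigned a peak, the 3 highest folds were not inside the gene: the peaks of rps-26 (2.74) and rpl-13 (2.39) lay past its end and that of rpl-37.2 (2.46) was 3736 bp upstream. Proteasome subunits, which are also in steady use, had a peak at 26 of 33 (78.8%; 21.2%). Major sperm protein and other sperm genes, with a median length of 384 bp, stood at 53.4% (29.3%), where the shortest length group had 55.5% (19%). Histone and sperm protein genes are near-identical copies, so their counts are uncertain.

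Non-coding genes were assigned peaks mainly by nearness. Of 260 microRNA genes 46.5% had an assigned peak, of the 346 snoRNA genes 50.3% and of the piRNA genes 1099 (7.15%). These genes are short, and of the 1508 peaks assigned to piRNA genes 10 had the summit inside. Among microRNAs, mir-270 had the strongest peak at 2.81 and mir-8187 the next at 2.77. mir-50, which lies in tln-1 (talin), was assigned a peak of 2.74 that is 3787 bp wide and whose summit is inside tln-1.

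The 12 peaks with the highest -log10 q (the tenth to the twelfth were tied) had folds of 3.06 to 3.57, and 9 of them had their summit inside a listed protein-coding gene. The strongest (X, 1408793 to 1410443, fold 3.57, -log10 q 49.9) overlapped the start of the non-coding F19G12.12 and had its summit inside abu-2, named for its activation when the unfolded protein response is blocked. The next was in eat-2 (II, 14170035 to 14171063, fold 3.40), and the third past the end of the non-coding T28D6.10 on III (fold 3.39). The fourth had its summit in the astacin gene nas-32 (V, 895152 to 897320, fold 3.31), though it was assigned to the neighbouring T02B11.10. Others had summits in ccep-290 (a ciliary protein gene, 3.22), Y5H2A.4 (3.22), the chemoreceptor gene srh-195 (3.22), Y45G12C.1 (3.06), W05B2.2 (3.19) and wdr-31 (3.19). Of the 12, 4 were assigned to short non-coding transcripts that the table places on a chromosome other than that of their RefSeq gene, so those gene names are not used.

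The 5 widest peaks were 3713 to 5085 bp wide. The widest, 5085 bp, was classed as lying in an exon of unc-22 (twitchin, the giant kinase of muscle) on IV (11981904 to 11986988), with a fold of 2.30, and was assigned to the non-coding ZK617.21. The others were 4709 bp in let-805 (fold 2.36), 4575 bp in irg-7 (an infection response gene, 2.36), the 3787 bp peak in tln-1 (2.74) and 3713 bp on the X, with its summit inside the assigned transcript of F28B4.3 and inside hrg-11.2 (2.69). Their folds were above the median of all peaks, 1.81, and none was among the 12 with the highest -log10 q.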

How the data were processed

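The tools named in the submitters' processing notes are BWA, SAMtools, MACS2, ChIPseeker and DiffBind. The sources used here do not give their versions and settings, the genome build, the control libraries or the handling of duplicates. The peak names in the file say that libraries were merged and outliers left out for the L1 peak call. The labels do not say whether the libraries of a group are separate cultures. The deposited peak list gives each peak a fold enrichment ratio over control and a −log10 q-value, both the authors', and these were used to rank and filter peaks. Coordinates are 1-based in the build of the files.

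Of 37030 peaks, 12 have no row in the annotated table: the first of the list and 11 on the mitochondrial chromosome. Widths and summits were joined by peak name, and signed summit distances were computed from the assigned transcripts. Assigned transcripts were matched for 99.8% of peaks to a RefSeq gene table (WBcel235), used for names, biotypes, lengths and gene order. Transcripts listed on another chromosome, over 5 kb away from their gene, or longer than 2 times its length plus 1000 bp were left out of gene counts and transcribed spans. They took 638 peaks (1.72%). Columns of per-sample values left unmapped numbered 0.

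No test was made, as there is 1 pooled list. Shares have 95% Wilson intervals for counting error. The peaks and the 49 gene lists were chosen with earlier results of these data known. Named were the 10 peaks of highest −log10 q (with ties), the 5 widest, the 10 genes with most peaks, every heterochronic gene, and up to 3 genes per list with the highest fold; other genes are named where a run, a gap or an overlap needs them, and were chosen after their values were seen. The geometry code was tested on simulated data. Alternatives were other thresholds on q and fold, summit against peak edge, midpoints, merging of peaks closer than 100 bp, and the 1 kb limit. Computing was done in Python 3.11.15 with pandas 2.3.3, NumPy 2.4.6 and SciPy 1.17.1, and figures were drawn with matplotlib 3.10.9.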

Additional observations from a re-analysis of the deposited data

How the results depend on the processing

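Shares that shift by more than their counting interval are given here. The share within 1 kb of a start, 56%, was 53.7% among peaks with q of 1e-10 or less, 53.5% among peaks with a fold of 2 or more and 49.7% when measured from the summit. The share upstream of the start, 30.2%, was 28.1%, 28% and 34.2% under the same settings. The X chromosome held 18.6% of all peaks, and 16.3% and 16.2% of those past the q and fold limits, so its position above its share of sequence ended. Median spacing, 1570 bp, was 5476.5 bp past the q limit, 6276 bp past the fold limit and 1613 bp after merging of peaks closer than 100 bp. Protein-coding genes with a peak, 68.8%, came to 30.1%, 27.3% and, within 1 kb of the start, 54.9%. Thresholds keep fewer peaks, which by construction widens spacing and lowers the gene share. Chosen after seeing the data, the share of summits inside a coding transcript rose from 68.2% to 72.4% (q) and 72.8% (fold), and keeping misplaced transcripts gave 69.2% of coding genes. Of 30 gene lists above the share of all protein-coding genes, 26 stayed above it within 1 kb and 21 at a fold of 2 or more. Of the lists below it, 4 rose above it within 1 kb and 7 at a fold of 2 or more. The piRNA and microRNA lists were set against the same share. No paired analysis was possible because the result comes from no test and the list has no value per library. The planned search for hexamers in promoters was not run. With no library values, depth and replicate error are unknown.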

Other observations

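The fold values were not continuous. They took 6501 distinct values over 37018 peaks, and 65.1% lay within 0.05 of a whole multiple of a step of 0.01554, counted in steps.

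The mitochondrial chromosome, which has no row in the annotated table, carried 11 peaks over 8406 bp, with folds of 1.51 to 2.05 and -log10 q of 7.81 to 27.9.

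Peaks assigned to different kinds of gene differed in chromosome. Of the 4928 peaks assigned to ncRNA genes, 32.6% were on the X, as were 32.6% of the 215 assigned to microRNA genes and 16.9% of the 28914 assigned to protein-coding genes. The genes themselves also differ in this: 72 of the 258 microRNA genes on the list and 2730 of the 19983 protein-coding genes are on the X. For ncRNA genes this share was not counted.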
